A study of Physcomitrium patens with 5 samples.

Results

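The most abundant transcripts of control protonemata were 109 of the 31775 loci listed for the moss Physcomitrium patens, or 0.343%. They were chosen by their level in the control libraries. A locus was taken if its mean over both DMSO libraries was at least 200 RPKM (reads scaled to the length of the locus in kilobases and to the library total), its maxMultiRatio was under 0.5 and its length was at least 0.5 kb. The maxMultiRatio is a fraction that the authors give for each locus and do not define; only loci where it is above 0 hold fractional reads, so it is read here as a mark of reads that map to several places. In all, 141 loci reached 200 RPKM in DMSO. Of these, 29 were left out for their maxMultiRatio alone, 2 for their length alone and 1 for both.

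Protonemata are the branching filaments that grow from a moss spore and later form the buds of leafy shoots. All 5 libraries came from a line in which PpARFC2, an auxin response factor of class C, can be overexpressed by adding β-estradiol. The protonemata were 7 days old, grown on BCDAT medium under continuous white light, and were held for 16 hours on 0.01% DMSO (the solvent, 2 libraries) or on 1 µM β-estradiol (3 libraries). No library of another genotype was analysed here, so an effect of β-estradiol itself and one of PpARFC2 cannot be told apart, and the labels do not state whether each replicate was a culture of its own.

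As background, the auxin response factor family comprises DNA-binding regulators that recognise auxin response elements in promoters. In a green plant tissue a few highly transcribed nuclear genes, among them those of the photosynthetic apparatus, of protein synthesis and of the cytoskeleton, commonly supply much of the poly-A RNA. Whether the 109 loci belong to such families was not examined, because 0 of them matched the reference table of 27567 genes by any identifier, and the files give no gene names. Protonema markers could not be read for the same reason. The loci are therefore described by their rank of mean DMSO level, their length and the prefix of their ID, in which the number after Pp3c is the chromosome in this ID scheme. IDs are printed only for members that passed the test.

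Reads in loci summed to between 17.6 and 27.7 M per library (M stands for mega). DMSO 1 and β-estradiol 1 had totals of 56.3 and 56.0 M reads, the other 3 libraries 37.3 to 39.4 M, and these are called the deeper and the shallower libraries below. A member had at least 2352 reads in every library, so counting error was at most 2.92% when each pair of mates is taken as a single count. That figure leaves out amplification and library preparation.

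The 109 loci held between 18.4 and 19.3% of all reads in loci in 4 of the 5 libraries, and less in DMSO 2. Their share was 18.8% in DMSO 1 and 14.6% in DMSO 2. It was 19.3% in β-estradiol 1, 18.4% in β-estradiol 2 and 18.5% in β-estradiol 3. DMSO 2 was the low library, and the groups overlapped, since DMSO 1 lay within the β-estradiol range. The mean was 16.7% ± 2.998 (SD, n = 2) in DMSO and 18.7% ± 0.506 (SD, n = 3) in β-estradiol, and the exact permutation test over libraries gave p = 0.3 (two-sided). An exact permutation of 2 libraries against 3 cannot give less than p = 0.1. The DMSO values entered the choice of members, and the β-estradiol values did not. The β-estradiol share still differed with that choice, at 20.7% for loci chosen on the β-estradiol mean and 17.3% for those chosen on DMSO 2 alone.

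DMSO 2 was again the low library when levels were summed per length. The 109 loci made up 24.5% of summed RPKM in DMSO 1, 19.7% in DMSO 2, and 25.6, 24.6 and 24.8% in β-estradiol 1, 2 and 3. RPKM divides by length, and members are short loci, so these shares exceed those of reads. Here the groups did not overlap, by a narrow gap between DMSO 1 and β-estradiol 2, at the smallest p the design allows (exact permutation p = 0.1).

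**Figure D1:**
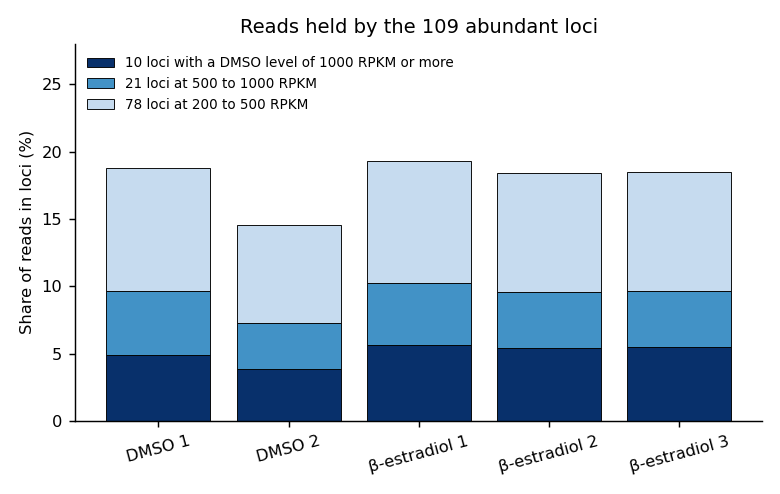
Share of the reads in loci (vertical axis, %) held by the 109 loci in each library, stacked by mean DMSO level. DMSO 2 stands at 14.6% and the other 4 libraries between 18.4 and 19.3%; the darkest part is the 10 loci at 1000 RPKM or more.

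Within the set, a small number of loci carried much of the signal. The highest mean DMSO level was 9.76 times the lowest, 10 loci were at 1000 RPKM or more, 21 at 500 to 1000 and 78 at 200 to 500, and the median was 334 RPKM. The median of the 17429 tested loci was 3.69 RPKM. Ordered by reads, which also grow with length, 25 of the 109 loci were enough to hold 50% of the members' reads.

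The most abundant locus lies under Pp3c6 and is 1.147 kb long. Its level was 2204 RPKM in DMSO 1, 1704 in DMSO 2, 3170 in β-estradiol 1, 3283 in β-estradiol 2 and 3156 in β-estradiol 3. All β-estradiol libraries lay above both DMSO libraries, and it also ranked highest in β-estradiol among loci eligible by length and maxMultiRatio. It differed by 0.72 on the log2 scale (SE 0.18) and did not pass (limma adjusted p = 0.0864).

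The locus at rank 2 (Pp3c21, 1.513 kb) was at 2023 and 1568 RPKM in DMSO and at 1900, 1949 and 1839 RPKM in β-estradiol. Its β-estradiol values all fell between those of the DMSO libraries. The locus at rank 3 (Pp3c22, 1.505 kb) was at 1844 and 1401 RPKM in DMSO and at 2049, 2351 and 2196 RPKM in β-estradiol, without overlap. In DMSO 1 and β-estradiol 1 the member with the most reads was that at rank 4 (Pp3c18, 1.937 kb). It held 0.725 and 0.423% of the reads in loci in the DMSO libraries and 0.868, 0.727 and 0.697% in the β-estradiol libraries. For this locus DMSO 2 alone stood low.

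The 10 loci at 1000 RPKM or more together held 4.90 and 3.83% of the reads in loci in the DMSO libraries. In the β-estradiol libraries they held 5.62, 5.40 and 5.47%. The groups did not overlap (exact permutation p = 0.1, the smallest this design allows). Of these 10 loci, 9 had a positive log2 change, with a median of 0.38, and 0 passed the test in limma or in voom on recovered reads. At an unadjusted p under 0.05 there were 3 in limma and 4 in voom. In limma, 10.1% of all tested loci were higher and 12.4% lower at that unadjusted p, so a count of 3 is near the share of all loci. Between the deeper libraries 7 of the 10 were higher (median log2 difference 0.16), and between the shallower ones 8 (median 0.64). The exception, at rank 5 (Pp3c8, 1.239 kb), was at 1227 and 1484 RPKM in DMSO and at 778, 920 and 848 RPKM in β-estradiol. Its β-estradiol values were all below DMSO, with a log2 difference of -0.67 (SE 0.17) at a limma adjusted p of 0.0913. Among the 21 loci from 500 to 1000 RPKM the median log2 change was 0.01, and among the 78 from 200 to 500 RPKM it was 0.09.

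**Figure D2:**
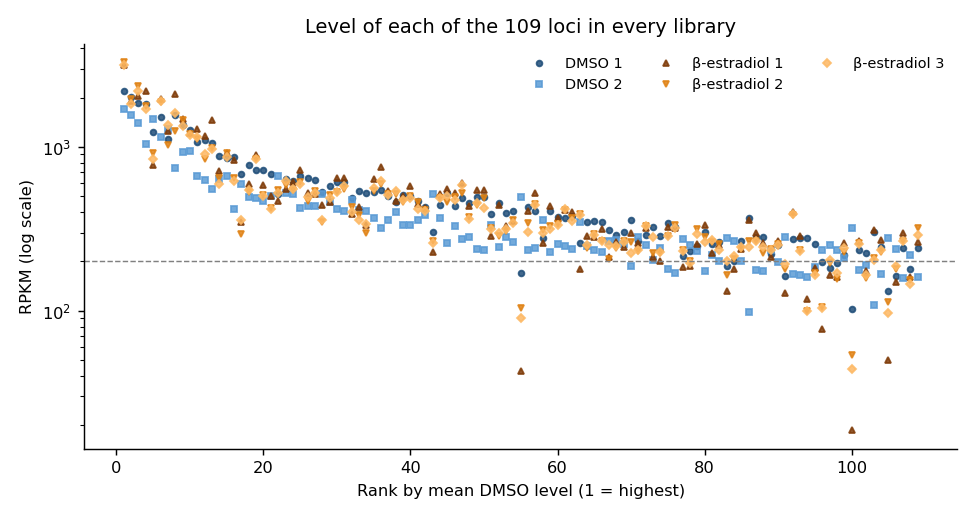
Level of each of the 109 loci in RPKM (vertical axis, log scale) in all 5 libraries, ordered by rank of mean DMSO level (horizontal axis). The dashed line is the threshold of 200 RPKM; most loci stay above it in β-estradiol, and those at ranks 55, 96, 100 and 105 have β-estradiol means under 100 RPKM.

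The β-estradiol libraries took no part in choosing the loci, and the set was largely the same in them. There, 95 of the 109 loci had a mean of at least 200 RPKM. By the same rule applied to the β-estradiol mean, 111 loci would be chosen, and the 95 in common make up 87.2% of the first list and 85.6% of the second. Of the 10 most abundant loci in DMSO, 9 were among the 10 most abundant in β-estradiol, and the other, that under Pp3c8, ranked 15 there. The lowest rank of any member in β-estradiol was 799.

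The 16 loci that reached 200 RPKM in β-estradiol but not in DMSO had mean DMSO levels of 92.6 to 196 RPKM, with a median of 177 RPKM, and a median of 232 RPKM in β-estradiol. Of these, 1 rose, a locus under Pp3c4 of 2.399 kb. It was at 95.1 and 90.1 RPKM in DMSO and at 222, 328 and 323 RPKM in β-estradiol, a log2 difference of 1.63 with a limma adjusted p of 0.0223. A locus of 5.534 kb under Pp3c6 was at 216 RPKM in DMSO 1 and at 3.95 RPKM in DMSO 2, with 796, 401 and 476 RPKM in β-estradiol, and was not called.

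The threshold cut through a continuous range of levels. Just inside it were means of 200.6, 200.5 and 200.2 RPKM in DMSO, and just outside it 199.1, 196.5 and 196.2 RPKM. Both DMSO libraries were at 200 RPKM or more for 81 members. For 18 members only DMSO 1 reached that level, and for 10 only DMSO 2 did.

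The members were short loci with a narrow range of lengths. Their median length was 1.55 kb (quartiles 1.27 and 2.08 kb, range 0.632 to 3.356 kb). Tested loci that met the same limits on length and maxMultiRatio had a median of 2.66 kb. Only 1 of the 109 was 3 kb or longer (0.917%), against 40.2% of those tested loci. The 545 eligible loci at 50 to 200 RPKM in DMSO also had a median of 1.56 kb, and the 2591 at 10 to 50 RPKM one of 2.16 kb. Short length was thus shared with the next level class. RPKM divides by length, so length entered the choice of members.

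Members were spread over 26 of the 27 Pp3c prefixes, and 0 lay under the prefixes that hold the other 674 listed loci. Pp3c1 held the most, 10 members among 1141 tested loci (0.876%). The highest shares were those of Pp3c19, with 8 of 513 tested loci (1.56%), and Pp3c13, with 8 of 574 (1.39%). Pp3c17 held 0 of 598, and Pp3c2, with many more tested loci, held 2 of 1069. Pp3c13 members held 1.47% of the reads in loci in DMSO and Pp3c1 members 1.31% (means of 2 libraries). These are counts, with no test.

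Some members were neighbours. Under the same prefix and at most 5 listed places apart, 16 members formed 8 pairs, and 6 members stood directly beside another member. Members make up 0.343% of the listed loci, and the number of such pairs under random placement was not computed. One such pair, under Pp3c1, has maxMultiRatios of 0.333 and 0.437, so reads may be split between its members or with other copies. Another, under Pp3c19, joined members ranked 17 and 80 with log2 changes of -0.94 and 0.34. At rank 80 the groups overlapped (SE 0.27, limma adjusted p = 0.496), so the sign of its change is not established. In all, 80 members have a maxMultiRatio of 0, and 6 have one above 0.01, those ranked 14, 41, 71, 75, 107 and 109. The separate values of these 6 are uncertain.

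Replicates of the members differed more in DMSO than in β-estradiol. On the log2(RPKM + 0.5) scale the median SD of a member was 0.38 over the 2 DMSO libraries and 0.11 over the 3 β-estradiol libraries, or 25.8 and 7.73% of the mean as a coefficient of variation. The DMSO SD was the larger for 99 of the 109. Over all tested loci the medians were 0.27 and 0.14. An SD from 2 libraries is itself imprecise, and the median SDs of β-estradiol pairs were 0.12 for libraries 1 and 2, 0.11 for 1 and 3, and 0.04 for 2 and 3.

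The DMSO spread had mostly 1 direction. DMSO 1 was above DMSO 2 for 88 of the 109 members (80.7%), with a median log2 difference of 0.43 over all members. Among tested loci that share was 42.3%, and among the 545 eligible loci at 50 to 200 RPKM it was 42.9%. With the authors' TMM table the member count was 90, and 48.3% of tested loci were higher in DMSO 1. The mean of the DMSO libraries chose the members. In the list chosen on the β-estradiol mean instead, DMSO 1 was the higher for 100 of 111 loci (90.1%). The locus with the widest DMSO spread ranked 86 (Pp3c13, 2.702 kb), at 367 RPKM in DMSO 1 and 97.8 RPKM in DMSO 2, with 360, 266 and 244 RPKM in β-estradiol. At the other end, the locus ranked 32 (Pp3c5, 1.314 kb) was at 486 and 477 RPKM in DMSO.

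The differences between DMSO libraries ran along with those between β-estradiol libraries. Across the 109 members, the difference of DMSO 2 from DMSO 1 correlated with that of the mean of β-estradiol 2 and 3 from β-estradiol 1 at r = 0.84 (Spearman's rho 0.77). Over the 17429 tested loci r was 0.61. Loci are not independent replicates, so these values describe the libraries. The libraries on each side of the comparison also share their replicate number and their depth class.

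Of the 21 members higher in DMSO 2, 17 were higher in both β-estradiol 2 and 3 than in β-estradiol 1. Of the 88 higher in DMSO 1, 61 were lower in both β-estradiol 2 and 3 than in β-estradiol 1. The 5 members with DMSO 2 above DMSO 1 by 1.5 times or more all had β-estradiol 2 and 3 above β-estradiol 1, with a median log2 difference of 1.05.

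**Figure D3:**
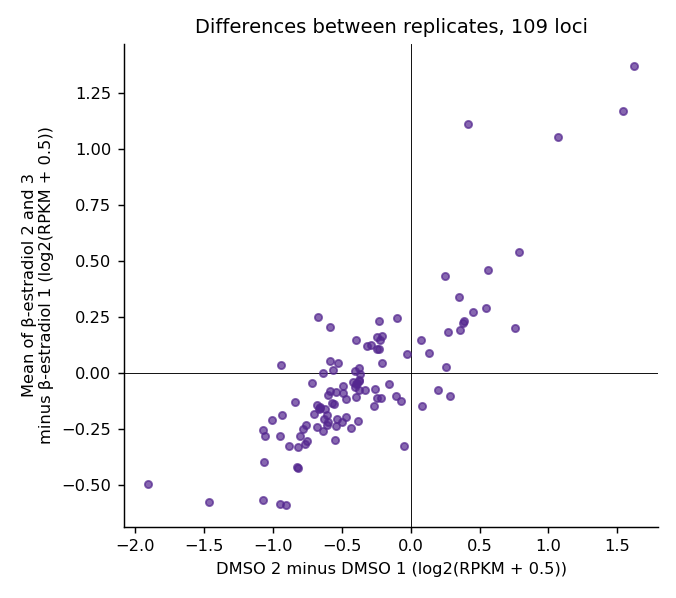
Difference of DMSO 2 from DMSO 1 (horizontal axis) and of the mean of β-estradiol 2 and 3 from β-estradiol 1 (vertical axis), both on the log2(RPKM + 0.5) scale, for the 109 loci. Most points lie to the left of 0, higher in DMSO 1. Over all 109 points the differences rise together (r = 0.84).

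The design asks which transcripts change with induction, here meaning treatment with β-estradiol. Few of the abundant loci passed the test: 2 of 109 fell and 0 rose (limma on log2(RPKM + 0.5), Benjamini-Hochberg adjusted p under 0.05 over 17429 tested loci). Among all tested loci, 1.58% were called higher and 2.95% lower. Because the DMSO level chose the members and also enters the change, nothing is read from this comparison of counts. At an unadjusted p under 0.05, 5 members were higher and 11 lower, where 10.1 and 12.4% of tested loci were. Voom on the reads recovered from RPKM called 0 members higher and 2 lower, and 1.23 and 2.25% of tested loci.

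Changes were small for most members. The log2 change had a median of 0.10 (quartiles -0.18 and 0.32), beside -0.02 over all tested loci, and a median SE of 0.21. It stayed within 1.5-fold either way for 95 members, was 1.5-fold or more upward for 6 and downward for 8. A change of 2-fold or more was seen for 5 members (4.59%), each of them lower in β-estradiol. Among tested loci, 5.51% were lower and 2.05% higher by 2-fold or more. The choice on the DMSO level favours the lower direction, and nothing is read from this count. The median depended on the DMSO libraries, at 0.30 without DMSO 1 and -0.09 without DMSO 2. Members chosen on DMSO 1 alone and measured from DMSO 2 had a median of 0.43, and members chosen on DMSO 2 alone and measured from DMSO 1 one of -0.09.

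Every β-estradiol library was above every DMSO library for 23 members (21.1%), against 20.8% of tested loci. Every β-estradiol library was below every DMSO library for 22 (20.2%), against 20.8% of tested loci. For the remaining 64 the groups overlapped. The 23 members that were above had log2 changes of 0.18 to 0.87 (median 0.44), and the 22 that were below had changes of -2.33 to -0.15 (median -0.40). Both counts are near the shares of all tested loci, and they differed with the way members were chosen. Chosen on the β-estradiol mean, 32 loci were above and 12 below, and chosen on all 5 libraries 30 and 13. Ranges under those choices were not computed, and the DMSO level that chose the members also enters their changes.

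**Figure D4:**
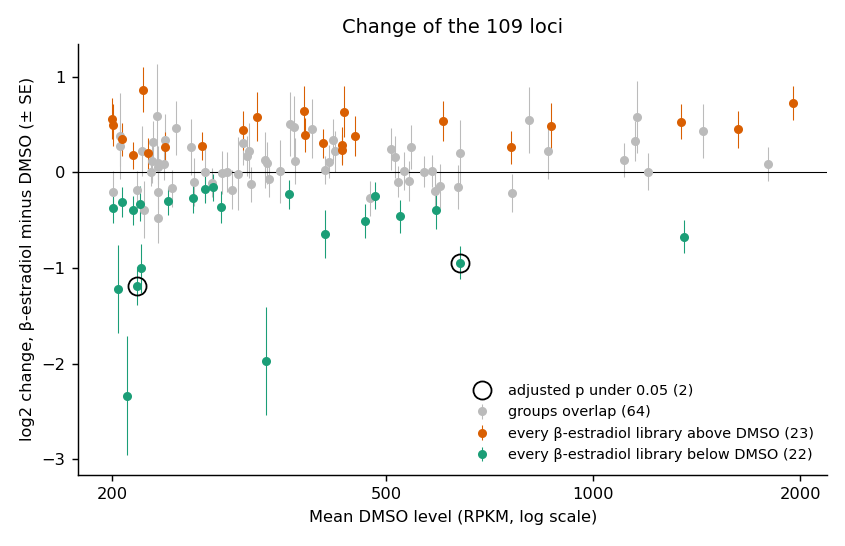
Log2 change from DMSO to β-estradiol with its SE (vertical axis) against mean DMSO level in RPKM (horizontal axis, log scale) for the 109 loci. Orange and green points are the 23 and 22 loci without overlap between the groups, grey points overlap, and rings mark the 2 loci with an adjusted p under 0.05.

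The members that fell were Pp3c19_3750 and Pp3c7_25080. Pp3c19_3750, ranked 17 and the shortest member at 0.632 kb, was at 688 and 593 RPKM in DMSO and at 350, 292 and 357 RPKM in β-estradiol. Both DMSO values were well above all β-estradiol values. It went from 640 ± 67.0 RPKM (SD, n = 2) to 333 ± 35.4 RPKM (SD, n = 3). The fitted difference was -0.94 on the log2 scale, with an SE of 0.17 and a limma adjusted p of 0.0424. It was -0.98 between the deeper and -0.88 between the shallower libraries.

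Pp3c7_25080, ranked 96 and 2.105 kb long, was at 198 and 236 RPKM in DMSO and at 77.3, 106 and 104 RPKM in β-estradiol. The groups did not overlap, and β-estradiol 1 was the lowest library. It went from 217 ± 26.6 RPKM (SD, n = 2) to 95.5 ± 15.8 RPKM (SD, n = 3). On the log2 scale it fell by 1.19 (SE 0.20), at a limma adjusted p of 0.0364. Between the deeper libraries it was -1.35 and between the shallower ones -1.17. In β-estradiol it ranked 248 among eligible loci.

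Both calls were lost without β-estradiol 1, 2 or 3, with limma adjusted p of 0.134, 0.218 and 0.201 for Pp3c19_3750 and 0.0962, 0.1504 and 0.166 for Pp3c7_25080. Without DMSO 2 the limma adjusted p of Pp3c7_25080 was 0.0609. Without a filter on low values it was 0.0616 for Pp3c19_3750 and 0.0571 for Pp3c7_25080, and Pp3c19_3750 also missed the threshold with the authors' TMM table (0.0578) and with median scaling (0.0655). Over the 15 other fits, the limma adjusted p of Pp3c19_3750 ranged from 0.00795 to 0.218 and that of Pp3c7_25080 from 0.00181 to 0.166, and the log2 change was negative in each.

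Larger differences that did not pass were found at members whose libraries scattered. The DMSO level that chose the members favours a fall, so nothing is read from the size of these falls. The locus ranked 100 (Pp3c25, 2.260 kb) was at 103 RPKM in DMSO 1 and 318 RPKM in DMSO 2, and at 18.6, 53.8 and 44.4 RPKM in β-estradiol. It changed by -2.33 (log2, SE 0.62), at a limma adjusted p of 0.101, and by -2.44 between the deeper and -2.69 between the shallower libraries. Within each treatment the deeper library was the lower.

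The same order was seen at ranks 55 and 105. The locus ranked 55 (Pp3c15, 1.933 kb) was at 171 and 497 RPKM in DMSO and at 42.8, 104 and 90.8 RPKM in β-estradiol, which is -1.97 on the log2 scale (SE 0.57) at a limma adjusted p of 0.115. The locus ranked 105 (Pp3c19, 2.130 kb) was at 132 and 277 RPKM in DMSO and at 50.1, 113 and 96.5 RPKM in β-estradiol. At all 3 of these loci, DMSO 2 and β-estradiol 2 and 3 stood above the deeper library of their treatment, and no β-estradiol value reached a DMSO value. Only DMSO 2 was at 200 RPKM or more there, so these loci became members through that library alone, and the lack of overlap is favoured by the choice.

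The locus ranked 94 (Pp3c24, 1.195 kb) had the opposite order, at 279 and 162 RPKM in DMSO and 119, 100.0 and 99.2 RPKM in β-estradiol. The log2 difference was -1.004 (SE 0.26), with 0.0928 as the limma adjusted p. The largest upward change belonged to the locus ranked 92 (Pp3c18, 2.071 kb), at 276 and 168 RPKM in DMSO and 400, 384 and 392 RPKM in β-estradiol. Its β-estradiol libraries lay close together, its DMSO libraries did not, and the log2 difference was 0.87 (SE 0.23) at a limma adjusted p of 0.103.

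**Figure D5:**
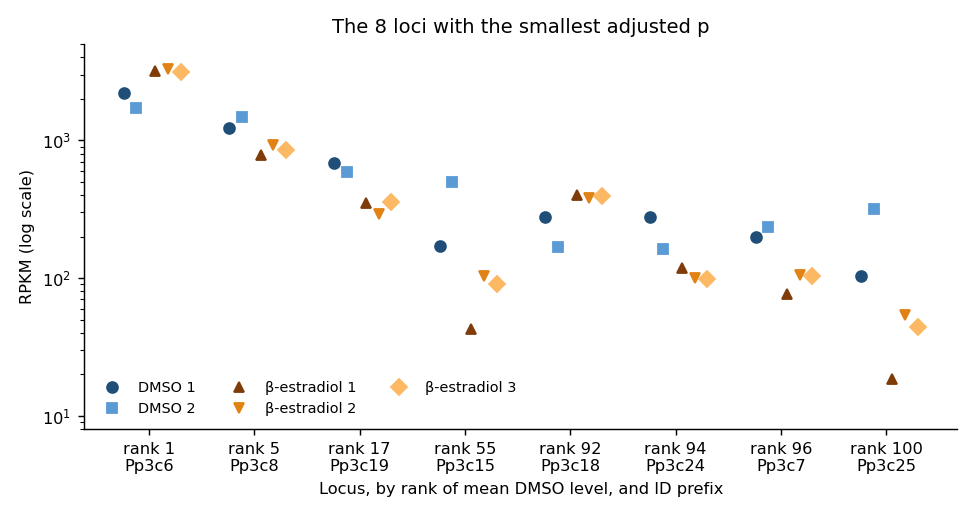
Level in RPKM (vertical axis, log scale) in each library for the 8 members with the smallest adjusted p, named by rank of mean DMSO level and ID prefix. Blue symbols are DMSO and brown to orange symbols β-estradiol; in each of the 8 loci the colours do not overlap, and only the members ranked 17 and 96 passed.

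The depth class was then taken into the model, a choice made because libraries of the same class deviated together. With it, 11 members rose and 11 fell (limma, adjusted p under 0.05), against 9.8% and 13.7% of all tested loci in those directions. In both directions together 20.2% of members were called and 23.5% of all tested loci, so the members' counts are near the share of all loci. Members that rose did so by 0.55 to 0.92 on the log2 scale (median 0.67), and those that fell had changes of -2.58 to -0.48 (median -0.92). Both members called without the term were among them. Those that rose included the most abundant locus (log2 change 0.75, SE 0.15, limma adjusted p = 0.0184) and those ranked 6, 8, 11, 13 and 19. The groups did not overlap for 9 of the 11 that rose and 9 of the 11 that fell. At ranks 8 and 13 they overlapped, with limma adjusted p of 0.414 and 0.397 without the term. Those that fell included the loci ranked 100 (log2 change -2.58, SE 0.13, limma adjusted p = 0.000470), 55, 105 and 5. With the term, few libraries are left to estimate the spread. Without it, the SE at rank 100 was 0.62 and the limma adjusted p 0.101. The DMSO level that chose the members also enters their falls, so the small p is not read as support for them.

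Counts of called members turned on DMSO 1. Without it, 31 members were called higher and 8 lower, against 7.7% and 13.9% of tested loci, where the lone DMSO library is given the spread of the β-estradiol group. Without any 1 of the β-estradiol libraries limma called 0 members in either direction; at an unadjusted p under 0.05 there were 2 higher in each of these fits and 6 or 7 lower. Few loci of any level were called there, 0.0975 to 0.281% higher and 0.0861 to 0.488% lower, so the members' 0 is near the share of all loci. At an unadjusted p under 0.05 the shares of all loci were 7.23, 5.51 and 5.45% higher and 10.2, 8.18 and 7.83% lower without β-estradiol 1, 2 and 3. What sets DMSO 2 apart was not tested.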

How the data were processed

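Per the labels' protocols, RNA with poly-A tails was purified on oligo-dT beads, reverse transcribed from random primers and sequenced in pairs of 100 bp on DNBseq. No step that marks strand is described there, so reads of overlapping antisense genes cannot be told apart. Tools listed in the submitters' processing notes are Bowtie2, RSEM, HISAT2, StringTie and Cufflinks; for versions, genome build and annotation, the entry is not given in the sources used here. Files that the authors deposited give RPKM values for 31775 loci. Per the file headers they also give a fraction per locus (maxMultiRatio), and a second deposited file holds a TMM-normalized signal scaled by length, used only as an alternative. Libraries were grouped by title and columns matched by the column letters in the labels.

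Where maxMultiRatio was 0, RPKM times length came in whole steps of a library-specific size at 100% of detected loci (tolerance 0.01 of a read), which gave the reads per locus and the library totals. Loci with exactly 2 such reads outnumbered those with 1 (736 against 369 in DMSO 1), so mates appear to be counted separately.

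The 17429 loci averaging 0.5 RPKM or more across all 5 libraries entered a two-sided limma test (version 3.58.1, R 4.3.3) of log2(RPKM + 0.5), moderated with a trend and robustly, without covariates; all 109 members passed that filter, as their DMSO level ensures. P-values reflect only how these libraries vary, and part of that may be technical. The fit was also run on simulated counts, drawn independently for each library. These counts hold no shared deviation by depth class or replicate number, so nothing about the present libraries is read from that run. Members, lists and alternatives were chosen with earlier results of these data known. IDs were printed by rule for at most 2 called members in each direction, and other loci singled out by change or spread were chosen after their values were seen. Alternatives varied the pseudocount, filter, table, scaling, moderation, model, libraries and the rule for members.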

Additional observations from a re-analysis of the deposited data

How the results depend on the processing

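On the authors' TMM values a single member (1) was called lower, with median scaling 1, without a filter on low values 0 (11 at an unadjusted p under 0.05) and with the depth class 11, which also called 11 higher; both other pseudocounts, the higher filter, plain moderation and voom called 2 lower and 0 higher. Over all loci, 156 were higher and 338 lower without a filter, and 1708 and 2396 with the depth class. When libraries were left out singly, 17 to 1342 loci were called higher and 15 to 2420 lower, among them 0 to 31 and 0 to 8 members, and a median member change of -0.09 to 0.30. With the replicate number as a block, 584 loci were higher and 1217 lower, with 6 members lower and 0 higher. In that fit 5.50% of members and 10.3% of all tested loci were called. Same-numbered libraries deviated together from their group means, with r = 0.615 for number 1 and 0.541 for number 2; DMSO 2 and β-estradiol 3, which share a depth class but no number, had r = 0.406. Both same-numbered pairs also share a depth class, and DMSO 1 and 2 mirror each other as a group of 2. As only 2 pairs exist and the labels give the numbers no meaning, they were not taken as a pairing.

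All shares of reads below are shares of the reads in loci. A threshold of 100 RPKM gave 256 members, holding 23.8% in DMSO and 26.0% in β-estradiol, with 4 called lower. With 500 RPKM there were 31 members, holding 8.46 and 9.83%, with 1 lower. For all choices of members the calls come from the fit over all loci, where 1.58% were higher and 2.95% lower. With a maxMultiRatio of exactly 0 the shares were 10.3 and 10.9%, with 1 lower, and with no limit on it 24.3 and 25.4%. A length of at least 1 kb left 1 call lower. Chosen on the β-estradiol mean the members held 20.7% in β-estradiol, and chosen on all 5 libraries 20.1%, with 1 higher and 1 lower in both. Chosen on DMSO 1 alone they held 20.1%, with 1 lower, and on DMSO 2 alone 17.3%. As summed RPKM the shares were 22.1 and 24.97%. Leaving out 1 library gave shares of 14.6 to 18.8% in DMSO and 18.5 to 18.9% in β-estradiol. The median SD of β-estradiol 2 and 3 alone was 0.038, and as coefficients of variation the spreads were 25.8 and 7.73%. The median member change was -0.07 with the threshold of 100 RPKM and 0.22 with the choice on the β-estradiol mean. Chosen on DMSO 1 alone it was 0.43 from DMSO 2 and -0.09 from DMSO 1. Chosen on DMSO 2 alone it was -0.09 from DMSO 1 and 0.19 from DMSO 2. Causes were not tested. Counting error is small at these loci, and a part of the depth class in the differences was not tested.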
